A study of Arabidopsis thaliana with 9 samples.

Results

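WRKY proteins are plant transcription factors that bind W-box DNA through the WRKY domain, a short peptide motif followed by a zinc finger. They are best known for reprogramming gene expression in immunity, under salicylic acid signalling and in leaf senescence, and some members act in seed, trichome, stem and root development. The family is divided by its domains. Group I proteins typically carry a pair of WRKY domains. Group II proteins carry a single one with the same type of zinc finger, and group III proteins a single one with a different zinc finger. Group II is split further into subgroups IIa to IIe. FIE belongs to PRC2, the Polycomb complex that silences genes by methylating lysine 27 of histone H3.

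All 72 nuclear protein-coding genes of Arabidopsis thaliana with a symbol or synonym from WRKY1 to WRKY75 were followed here, out of 27444 nuclear protein-coding genes. They comprised 14 genes of group I, 44 of group II and 14 of group III. Occupancy came from ChIP-seq of untreated 30 hr old plants of strain Ws, grown in long days on Murashige and Skoog plates. The wild type carried no transgene, and the other genotype carried both pRNAi-BPC and pRNAi-ZnF, RNA interference transgenes against BPC genes, which encode GAGA-motif binding factors, and against ZnF genes, read here as zinc finger genes. Both were precipitated with anti-FIE, and input chromatin came from the wild type alone, with 3 libraries in each of the 3 groups. The labels do not give the promoter of the transgenes, the members they target or the number of lines, and how far the targeted genes were reduced was not measured by these data. Whole plants were used, so a peak in a part of the cells and a weaker peak in all of them cannot be told apart.

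The deposited data were 1 peak list per anti-FIE group, so every value below is that of a list made for its group. No spread between replicates could be computed, no test was run, and the counts describe these lists. The wild-type list held 6540 peaks and the list taken as the double knockdown held 4882. Library depths are unknown here. The local background behind the peaks, solved from their fold and p values, was 2.12 times higher in the wild-type list. The lowest summit pileup was 53 in that list and 35 in the other. The knockdown list could thus miss a weak site that the wild-type list holds, even at the same occupancy. Bound genes are those with 1 bp or more of a peak on the gene body.

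FIE marked a good share of the WRKY family in the wild type, and almost all of the bound genes belonged to group II. A wild-type peak lay on 22 of the 72 genes (30.6%), against 9.94% of all protein-coding genes. Group II held 20 of these, 45.5% of its 44 members. Group I had 1 bound gene of 14, WRKY58, and group III had 1 of 14, WRKY62, which is 7.14% each and near the share of all genes. Within group II, 19 of the 20 bound genes came from subgroups IIb, IIc and IIe. Subgroup IIb had 6 of 8 bound (75%), IIe had 5 of 8 (62.5%) and IIc had 8 of 18 (44.4%). Subgroup IId had 1 of 7, and IIa had 0 of 3. Together, IIb, IIc and IIe held 19 bound genes of 34 (55.9%), and the 38 other family members held 3 (7.89%).

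Gene length differed between the groups and between bound and unbound genes, and its part in the counts was not tested. The median gene length was 2445 bp in group I, 2061.5 bp in group II and 1570.5 bp in group III. Subgroup IIb, with the highest bound share, had the longest median of the family's groups and subgroups, 2865.5 bp. Bound WRKY genes had a median length of 2333 bp and unbound ones 1926 bp, and within group II these were 2371.5 and 1832 bp. Among all protein-coding genes between the lower and upper quartiles of WRKY gene length, 9.89% had a wild-type peak. A single WRKY gene, WRKY74, lay in the gene-poor region around a centromere, and it had no peak.

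**Figure D1:**
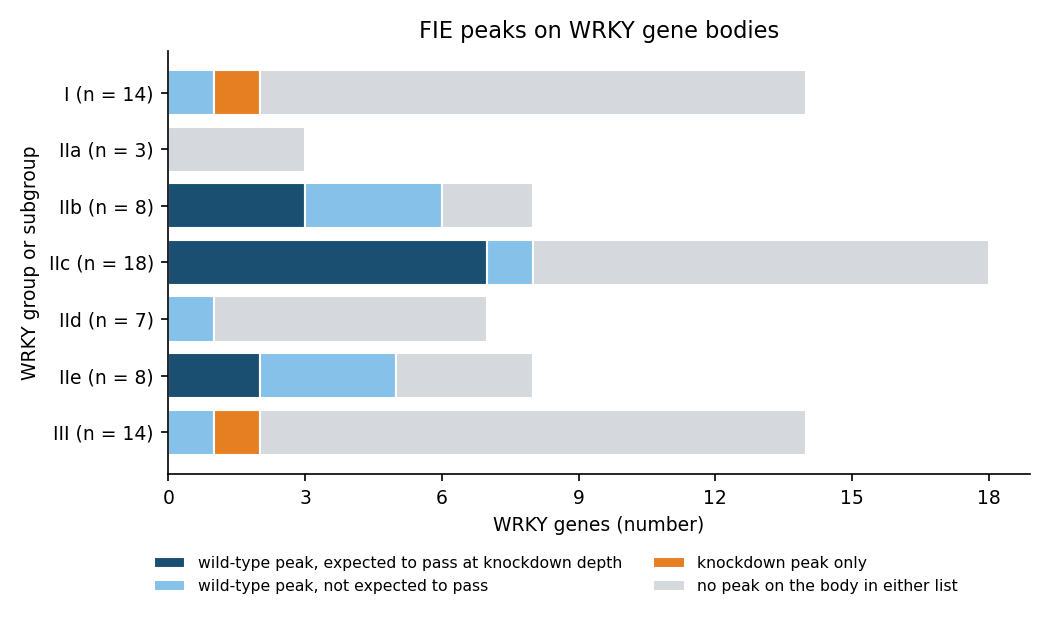
Number of WRKY genes (x axis) in each group or subgroup (y axis), split by whether the gene body had a wild-type FIE peak strong enough for the knockdown depth, a weaker wild-type peak, a knockdown peak only, or none. Subgroups IIb, IIc and IIe hold 19 of the 22 wild-type-bound genes, and the 2 genes with a knockdown peak are in groups I and III.

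The strongest FIE signal of the family was in subgroup IIc. WRKY57, known for drought tolerance and for restraining jasmonate-induced leaf senescence, had the highest fold enrichment at a summit, 10.8, in a peak of 2486 bp that covered 53.9% of the gene (chromosome 1, 26056170 to 26058655). WRKY23, an auxin-responsive gene of root development, followed at 9.66 in a peak of 1637 bp lying wholly inside the gene (chromosome 2, 19405420 to 19407056). At WRKY13, which promotes lignification of the stem, the fold was 8.35 in a peak of 1493 bp (chromosome 4, 18333601 to 18335093). The fourth, WRKY48, a repressor of basal defence against bacteria, had a fold of 7.30 in a peak of 2847 bp that covered 93.2% of its body (chromosome 5, 20090316 to 20093162). These 4 ranked 54th, 77th, 121st and 162nd by highest fold among the 2727 bound protein-coding genes of the wild type. No other WRKY gene exceeded 5.68.

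The 4 remaining bound genes of subgroup IIc had lower folds. WRKY59 reached 4.54 in a peak of 464 bp that ran past the end of the gene and covered 10.6% of it. WRKY28, an activator of salicylic acid synthesis genes, reached 4.47 in a peak of 1105 bp (chromosome 4, 10061273 to 10062377). WRKY51, which acts with its close relative WRKY50 where salicylic acid represses jasmonate responses, had 3.88 over 40.2% of the body, while WRKY50 had no peak within 1 kb. WRKY71, a promoter of shoot branching and flowering, had the weakest peak of the subgroup, with a fold of 3.30 over 230 bp. Folds within the subgroup thus spanned 3.30 to 10.8 with a median of 5.92, the widest range of any WRKY subgroup in these lists.

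Subgroup IIe held mostly broad peaks of modest fold. WRKY14 had 2 peaks covering 77.6% of its body, the stronger with a fold of 5.68 over 1863 bp (chromosome 1, 10868212 to 10870074). Its close relative WRKY35 had the highest covered share of the subgroup, 79.4% under 2 peaks, yet its highest fold was only 3.65. WRKY65 had a peak of 1126 bp at 4.23 over 68.1% of the gene. WRKY27, which affects the development of bacterial wilt, had 3.91 over 66.3%. WRKY29, which acts in the flagellin response together with WRKY22, had 2 shorter peaks with a highest fold of 3.67. They were 150 and 529 bp long and covered 36.5% of its body. WRKY22 had no peak on the body, but one of 441 bp stood 860 bp away at 4.22. WRKY16 (TTR1), a fusion to an immune receptor, and WRKY69 had their nearest wild-type peaks 23.3 and 21.5 kb away.

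In subgroup IIb the peaks covered less of each gene, a median of 23.6% of the body per bound gene against 55.2% in IIc and 68.1% in IIe. WRKY47 had 2 body peaks, with 4.90 at the stronger (chromosome 4, 747452 to 748361), and a further peak 602 bp outside the gene. WRKY31 had 3 body peaks, more than any other WRKY gene, with 4.65 at the strongest, whose summit lay 106 bp beyond the gene end. WRKY6, a regulator of senescence and of phosphate transport, had 2 body peaks and a highest fold of 4.54. WRKY42, which acts with WRKY6 on phosphate transporter genes, had a single peak of 204 bp at 3.75, covering 6.34% of the gene. WRKY36, a repressor of the light-response gene HY5, also had 3.75, over 22.6%. WRKY72, a gene of basal immunity, was the weakest of the 6 at 3.25. WRKY9 and WRKY61 were unbound, with the nearest wild-type peaks 6.59 and 1.13 kb away. Peaks covered more than 50% of the body in 0 of the 6 bound genes of IIb, in 5 of 8 of IIc and in 4 of 5 of IIe.

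**Figure D2:**
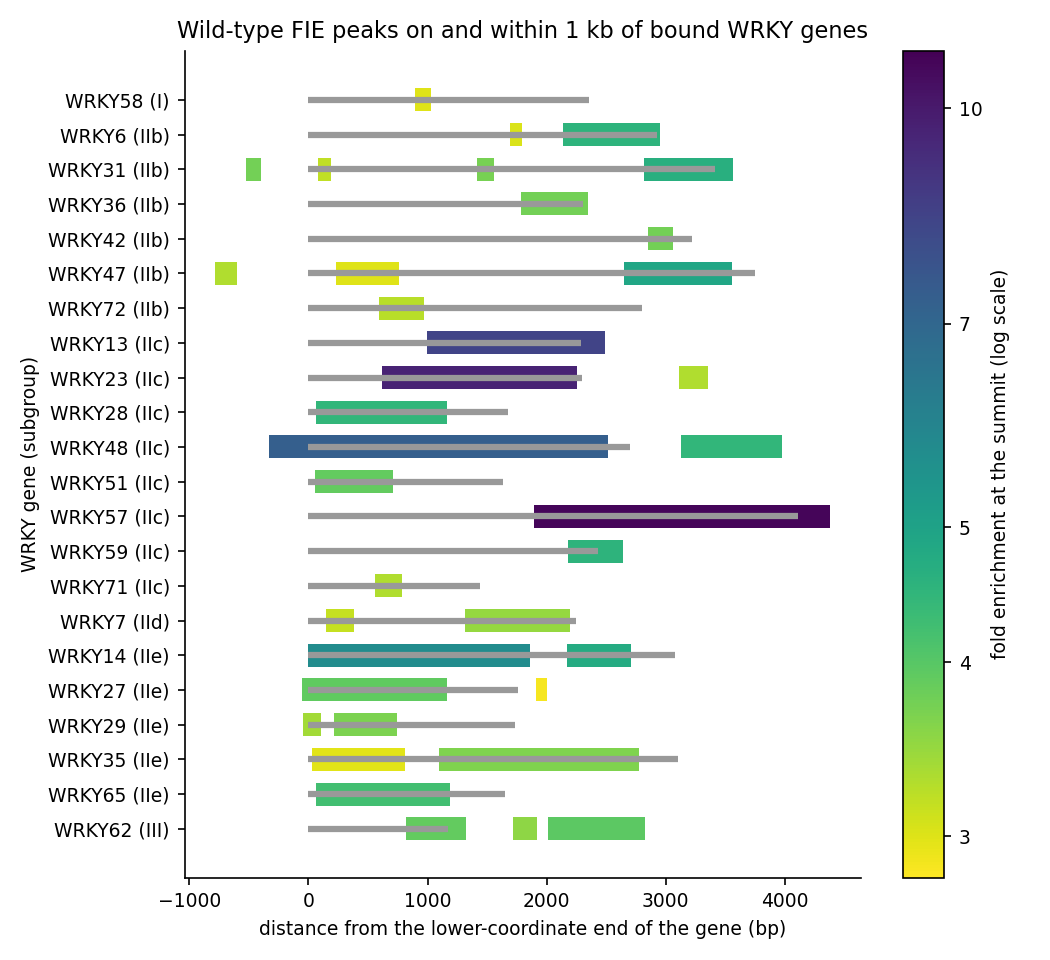
Wild-type FIE peaks (coloured boxes) on the 22 bound WRKY genes and within 1 kb of them, against distance from the lower-coordinate end of each gene in bp (x axis); grey lines are gene bodies and colour gives the fold enrichment at the summit on a log scale. Peaks of WRKY48, WRKY35 and WRKY14 span most of the gene, and those of WRKY42 and WRKY58 are short.

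Outside these subgroups 3 genes were bound, with highest folds from 3.00 to 3.89. WRKY7 of subgroup IId, whose members bind calmodulin, had 2 peaks over 49.8% of its body with a highest fold of 3.48. WRKY58, of group I, had a peak of 132 bp at 3.00, which is under the list median of 3.29. WRKY62, of group III, a repressor of basal defence together with WRKY38, had a fold of 3.89 over 349 bp of its body. The summit of that peak lay 18 bp outside the gene, and 2 further peaks stood 548 and 840 bp away. WRKY38 was unbound, with the nearest wild-type peak at 7.98 kb.

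Taken over all 30 body peaks of the family, the median fold was 3.81, and 23 peaks were above the list median. The strongest 10% of the wild-type list contained 5 of the 30. A length over 1 kb was reached by 9 of the 30, against 8.75% of the whole list. The whole list includes peaks outside coding genes, and a longer peak meets a gene body more readily. No body peak touched the body of another annotated gene, and 28 of the 30 had their summit inside the WRKY gene. Whether a peak also belongs to a neighbouring gene was not tested. Per bound gene, the median of the highest fold was 4.07 for WRKY genes and 3.37 for all bound protein-coding genes. Bound WRKY genes had a median of 994.5 bp of their body under peaks, or 39.4% of it, against 310 bp and 16.3% for all bound genes. More than 50% of the body was covered in 9 of 22 (40.9%), against 21.2% of all bound genes. The summit of the strongest peak lay inside the gene and within 500 bp of one of its ends in 11 of 22 (50%), against 57.6%. The gene table gives no strand, so starts and ends of transcription could not be told apart.

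**Figure D3:**
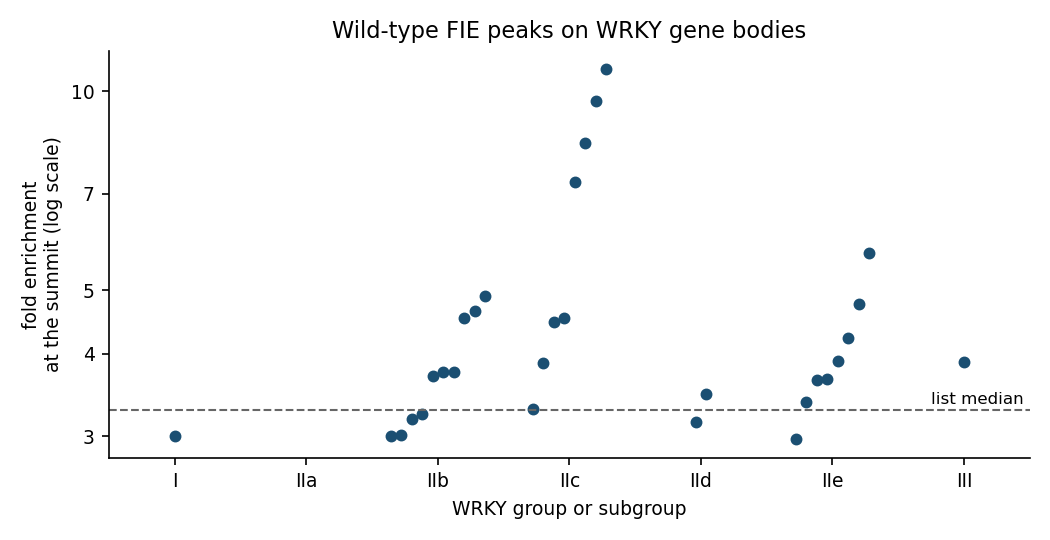
Fold enrichment at the summit (y axis, log scale) of each of the 30 wild-type FIE peaks on WRKY gene bodies, by group or subgroup (x axis); each point is a peak and the dashed line is the median of the whole wild-type list, 3.29. Subgroup IIc holds the 4 points above 7, and IIa has none.

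The boundary of the overlap rule left out 7 genes with a wild-type peak within 1 kb and none on the body. With these, 29 of 72 WRKY genes had a peak on the body or within 1 kb, against 15.7% of all protein-coding genes. WRKY21 and WRKY15, both of IId, were the closest, with peak edges 12 and 23 bp from the gene. WRKY15 had 4 such peaks, on both sides of the gene, the strongest at 4.87 and 53 bp away. The one at 23 bp also overlapped the protein-coding gene AT2G23321. Of the others, WRKY68, WRKY12 and WRKY8 belong to IIc, with gaps of 139, 664 and 685 bp. The peak beside WRKY12 overlapped AT2G00920, a non-coding RNA gene. WRKY12 represses secondary wall formation in the pith and acts opposite to WRKY13 in flowering. WRKY8, a gene of salt and virus responses, had the second strongest of these flanking peaks, at 4.82. The remaining pair were WRKY22 and WRKY70. WRKY70, which balances salicylic acid and jasmonate signalling, was the single group III member among them, at 342 bp. Just inside the rule, the smallest overlaps were 132 bp at WRKY58, 204 bp at WRKY42 and 230 bp at WRKY71.

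The other 43 WRKY genes had no wild-type peak within 1 kb, and they included several well known immune regulators. WRKY33, needed for camalexin synthesis and resistance to necrotrophic fungi, had its nearest wild-type peak 11.2 kb away. For WRKY18, WRKY40 and WRKY60, the IIa trio that represses basal defence and abscisic acid responses, the distances were 1.08, 3.00 and 55.1 kb. WRKY46, WRKY53 and WRKY54, group III genes of salicylic acid responses and senescence, were 20.3, 12.5 and 25.3 kb from a peak. WRKY52 (RRS1), an immune receptor fusion of group III, was 14.4 kb away. WRKY11 and WRKY17, a IId pair that represses basal defence, were 58.3 and 6.28 kb away. Developmental members of group I were unbound too, with 17 kb at TTG2 (WRKY44), a gene of trichome and seed coat development, and 1.06 kb at MINI3 (WRKY10), which acts in seed growth. WRKY2 and WRKY34, which act in pollen, lay 6.55 and 6.26 kb from the nearest peak. WRKY75 of IIc, a regulator of phosphate starvation responses, was 5.16 kb away.

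Unbound genes of group II had the smallest median distance to a wild-type peak of the 3 groups. It was 5.12 kb for the 24 of group II, 9.77 kb for the 13 of group I and 12.5 kb for the 13 of group III. Within group II it was 3 kb in IIa, 3.86 kb in IIb, 4.43 kb in IIc, 13.6 kb in IId and 21.5 kb in IIe, over 2 to 10 genes each. Over all unbound protein-coding genes the median was 10.3 kb, and 6.36% lay within 1 kb, against 7 of the 50 unbound WRKY genes (14%). These ranges overlapped widely, from 1.06 to 25.3 kb in group I, 0.012 to 58.3 kb in group II and 0.342 to 33.8 kb in group III.

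**Figure D4:**
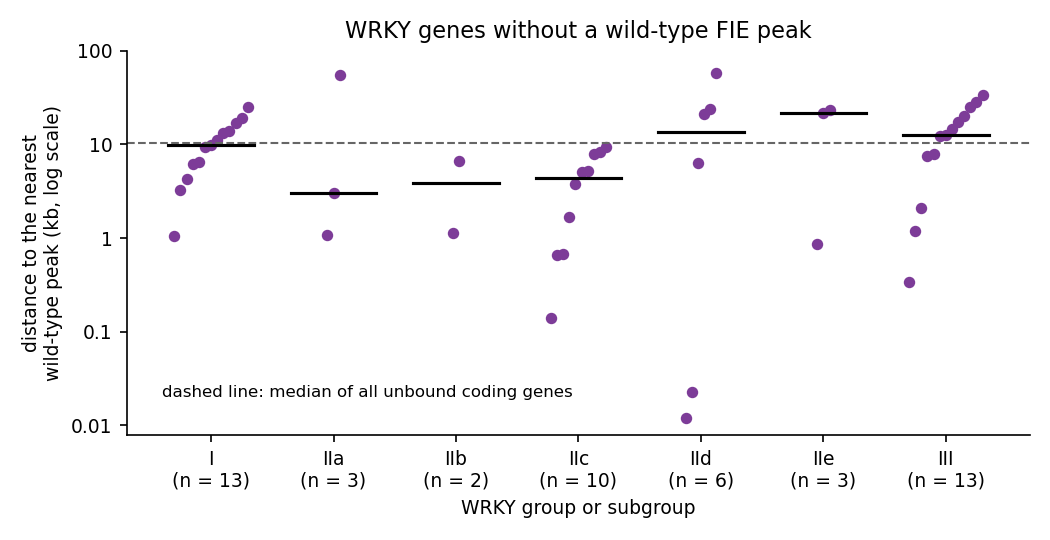
Distance in kb (y axis, log scale) from each WRKY gene without a wild-type body peak to the nearest wild-type FIE peak, by group or subgroup (x axis); points are genes, bars are medians and the dashed line is the median of all unbound protein-coding genes, 10.3 kb. The closest genes, at 0.012 and 0.023 kb, are in IId.

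None of the 22 genes bound in the wild type had a peak on its body in the double knockdown. Among all protein-coding genes bound in the wild type, 92.4% lacked a knockdown peak, so the WRKY count is close to that background. The knockdown list marked 2 other WRKY genes (2.78%), against 4.39% of all protein-coding genes. WRKY20, of group I, had a peak of 89 bp at a fold of 4.02 (chromosome 4, 13439160 to 13439248). WRKY67, of group III, had a peak of 84 bp at 4.58 (chromosome 1, 24828568 to 24828651). The median fold of the knockdown list was 4.35, and folds are not compared between lists. Both peaks covered little of their gene, 1.82% and 7.25%, and the nearest wild-type peaks were 19 and 17.4 kb away. A further 2 genes had a knockdown peak within 1 kb and none on the body, WRKY2 at 608 bp and WRKY64 at 547 bp, which makes 4 of 72 against 7.11% of all protein-coding genes. WRKY64 and WRKY67 are adjacent, related group III genes on chromosome 1, and how the authors placed reads shared between related copies is not stated. Both flanking peaks overlapped another protein-coding gene, CSN6A next to WRKY2 and SUC7 next to WRKY64. No input of the knockdown plants was in the series, so these peaks have no control from the same genotype.

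For 12 of the 22 genes the wild-type signal was expected to pass at the depth of the knockdown list. To judge this, pileup and background of each wild-type peak were scaled by 0.471, the ratio of the list backgrounds. Scaled pileups were then rounded down to whole numbers and backgrounds were not, which lowers the scaled −log10 p slightly. A peak counted as strong enough when its scaled −log10 p reached 12.4, the smallest value listed for the knockdown. These 12 genes (16.7%), against 2.71% of all protein-coding genes, all belonged to group II: 7 in IIc, 3 in IIb and 2 in IIe. Scaled values were 84.3 at WRKY57, 64.6 at WRKY23, 48.8 at WRKY13 and 35 at WRKY48. Before rounding down, the WRKY57 summit pileup of 269 would be 127 at the knockdown depth. The smallest pileup in the knockdown list was 35. WRKY14, WRKY28, WRKY47, WRKY6 and WRKY31 had scaled values from 21.2 down to 14.6. WRKY59, WRKY65 and WRKY51 passed narrowly, at 13.9, 13.2 and 12.8. The rule uses expected pileups and allows for no counting noise, so genes this near the limit could be missed at unchanged occupancy. All 12 lacked a knockdown peak, as did 90.1% of all genes bound by such peaks.

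At the other 10 genes the absence of a knockdown peak on the body could not be told apart from the lower depth. They were WRKY58, WRKY62, WRKY7, WRKY71, the IIb genes WRKY36, WRKY42 and WRKY72, and the IIe genes WRKY27, WRKY29 and WRKY35. Their scaled values ran from 7.2 at WRKY58 to 11.8 at WRKY27, just under the limit. WRKY27 lay near enough to the limit that the rounding down of its pileup could decide its place. The broad coverage of WRKY35 did not bring it over, since its best scaled value was 9.58. So the body peaks of WRKY58 and WRKY62, the wild-type-bound genes of groups I and III, could not show a loss of FIE in the knockdown list. Beside WRKY62, the wild-type peak 840 bp away passed narrowly at 13, and the one 548 bp away did not pass, at 9.25. The nearest knockdown peak lay 23.8 kb from WRKY62.

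Knockdown peaks did not stand close to the wild-type-bound WRKY genes either. The nearest was a median of 28.2 kb away, against 19.4 kb for all genes bound in the wild type. Unlike the WRKY set, that set includes genes with a knockdown peak on the body. WRKY59 had the closest, 2.11 kb from the gene, and WRKY36 the most distant, at 128 kb. For WRKY57, WRKY23, WRKY13 and WRKY48 the distances were 12.8, 79.2, 10.3 and 34.7 kb.

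**Figure D5:**
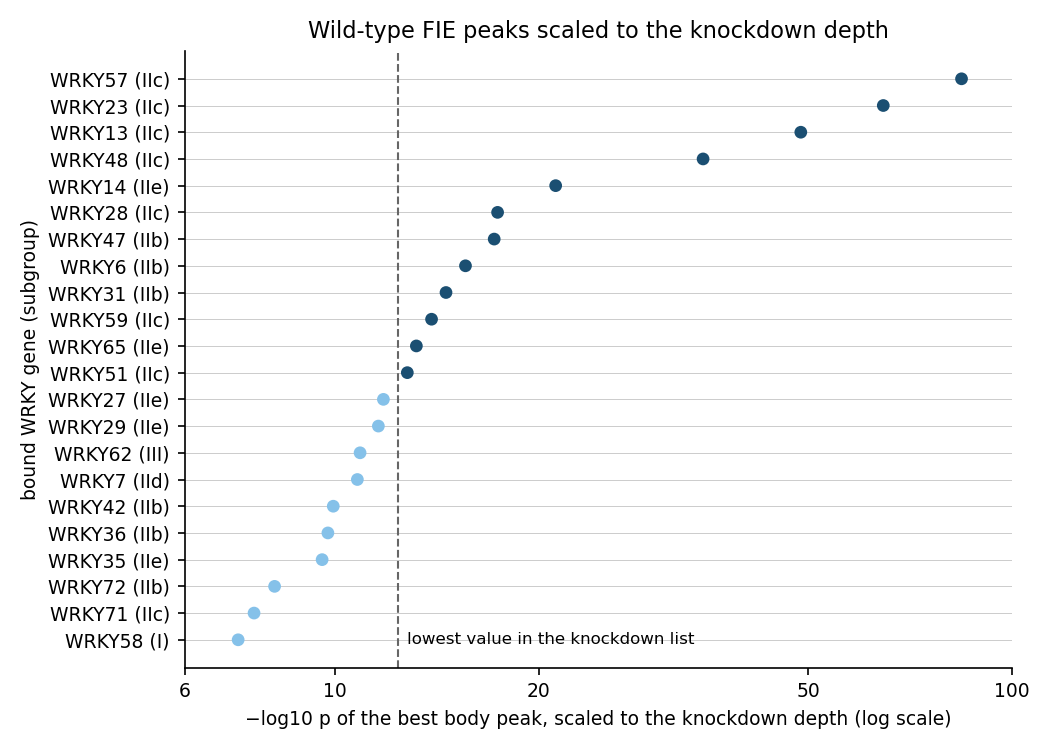
−log10 p of the best wild-type body peak of each bound WRKY gene after scaling to the knockdown depth (x axis, log scale), with genes and their subgroup on the y axis; the dashed line at 12.4 is the lowest value in the knockdown list. Dark points, 12 genes, are past the line and pale points, 10 genes, are below it.

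Genes that act around the WRKY factors had FIE peaks at a share near that of all genes. Of 35 such genes on 6 lists, 5 had a wild-type peak (14.3%, against 9.94% of all protein-coding genes) and 0 had a knockdown peak. With lists this short, a count of 0 is also what a share near the background can give. The MAP kinase cascade that activates WRKY factors had 0 of 8 bound, among them MPK3 and MPK6, with nearest wild-type peaks at 13.5 and 4.66 kb. Immune receptors and their kinases had 0 of 6, and the salicylic acid regulators EDS1, PAD4, SAG101, NPR1 and ICS1 had 0 of 5. Of the VQ-motif proteins that bind WRKY factors, 1 of 4 was bound, SIB1, by a peak of 149 bp at 3.53. The defence output genes had 3 of 7. CYP79B2, a cytochrome P450 gene of indole glucosinolate and camalexin synthesis, had 5.78 with 68.5% of its body covered, and PR1 and PR2, marker genes of salicylic acid responses, had weak peaks at 3.30 and 3.13. Of the developmental partners, 1 of 5 was bound: GL2, a homeobox gene of trichome and root hair patterning, with 3 peaks and a highest fold of 5.82. CYP79B2 and GL2 were the 2 with a peak strong enough for the knockdown depth.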

How the data were processed

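The authors deposited 1 narrowPeak list per anti-FIE group. Per the submitters' processing notes, Bowtie2, bedtools, MACS2 2.1.0.20151222 and TAIR10 were used; their roles and the use of replicates and input are not given in the sources. The second list has an abbreviated name that no label explains and was read as the other anti-FIE group, the knockdown. Each deposited row holds a score, a fold ratio at the summit, a −log10 p, a −log10 q and a summit offset; the deposited score restates the −log10 q. All −log10 q values exceeded 10, so sites below that level are not listed.

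Gene names and positions came from the RefSeq TAIR10.1 table, whose nuclear chromosomes were taken to equal TAIR10; printed coordinates are those of the peaks. All 72 genes matched by symbol or synonym. Groups followed the textbook classification. Members and gene lists were chosen with earlier results of these data known. Every bound WRKY gene, and every one with a peak within 1 kb, was named. Pileup and background were solved from fold and −log10 p (Poisson, pseudocount 1, largest misfit 7.27e-04), checked on simulated data. At 874 summit pairs within 30 bp the background ratio was 0.471 (interquartile range 0.467 to 0.475). The fold and −log10 p of the authors fix this ratio; it assumes that background follows depth and that fragment length was the same. Gene-poor regions were the longest run per chromosome of 100000 bp bins with a smoothed gene number (5 bins) under 0.5 times the median. Python 3.11.15, pandas 2.3.3 and scipy 1.17.1 were used.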

Additional observations from a re-analysis of the deposited data

How the results depend on the processing

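Counts of bound WRKY genes were recomputed under 6 alternatives. The wild-type count stayed within 1.5 times of 22 under 5 of them (19 to 29 genes) and was 12 with only the wild-type peaks strong enough for the knockdown depth. The count without a knockdown peak behaved alike, with 12 under that setting, and so did group II, with 20 genes, 18 to 26 under 5 alternatives and 12 under the depth setting. Group I went from 1 to 0 with the upper 50% of each list by q and to 0 at the knockdown depth. Group III went from 1 to 0 with the summit in the body, to 0 at the knockdown depth and to 2 with 1 kb added on both sides. The knockdown count of 2 became 0 with at least 100 bp of overlap, 4 with 1 kb added and 1 (WRKY67) with the upper 50% by q. All genes were bound in the wild type at 8.52% with 100 bp of overlap, 8.86% with the summit in the body, 5.23% in the upper 50% and 7.55% with lists of equal length. Grouping by zinc finger spacing was not run, since no protein sequences were used here. No paired analysis was possible because the lists carry no replicate columns, and for the same reason no replicate could be left out. Depth limits the comparison of the lists for the 10 genes named above, and also for those that passed the depth rule narrowly.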

Other observations

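Wild-type-bound WRKY genes were spread over all 5 chromosomes, with 6 of 16 on chromosome 1, 3 of 17 on chromosome 2, 1 of 6 on chromosome 3, 7 of 16 on chromosome 4 and 5 of 17 on chromosome 5. The pairs of close relatives given here are examples and do not show how often relatives shared binding. WRKY14 and WRKY35 were both bound, with 77.6% and 79.4% of the body under peaks. In the following pairs a single member was bound. WRKY65 had 68.1% of its body under a peak and WRKY69 had its nearest peak at 21.5 kb. WRKY72 had a body peak of 378 bp and WRKY61 had its nearest peak at 1.13 kb. WRKY7 had 49.8% of its body under peaks, and WRKY15 had peaks on both sides and none on the body.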
